A study of Bos taurus with 16 samples.

Results

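The genes described here are 4 collagen genes, COL4A4, COL21A1, COL24A1 and COL25A1, together with COLQ, which encodes a protein with a collagen tail. They are 5 of the 36824 entries in the count table, and all 5 were found by their symbols. They were selected on their measured difference between cumulus and granulosa cells, so that difference is given as a description, with no test. The side of the corpus luteum was not used to choose them, and the comparisons of sides are therefore tested.

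The libraries come from ovarian follicles of cattle (Bos taurus). Groups were cumulus cells from follicles ipsilateral to the corpus luteum, cumulus cells from contralateral follicles, granulosa cells from ipsilateral follicles and granulosa cells from contralateral follicles. Each group has 4 libraries, 16 in all, and per the design text a pool combined cells of 3 animals. No genetic change or drug is named in the labels, and the sources used here do not give breed, age or day of the cycle. Whether animals were shared between the pools of different groups is not stated. The tests treat the pools as independent, so p-values measure the spread between these pools and do not account for any shared animals.

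Collagens are matrix proteins in which 3 chains wind into a helix. The chain encoded by COL4A4 joins those of COL4A3 and COL4A5 in the type IV network of some basement membranes, the thin sheets on which epithelia rest. COL21A1 belongs to the collagens that associate with fibrils, COL24A1 to the fibril-forming collagens, and COL25A1 encodes a collagen that spans the cell membrane and whose shed part is found in amyloid plaques. COLQ attaches acetylcholinesterase, the enzyme that breaks down acetylcholine, to the basal lamina of the synapse between nerve and muscle. In the follicle, the mural granulosa cells border on a basal lamina, while cumulus cells surround the oocyte inside.

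Library totals lay between 10.1 and 21.9 M counts (M, mega). Levels are CPM, counts per 1 M counts of the library, after TMM scaling, which adjusts for library composition. Replicate pairs differed by a chi-square per gene of 11.95 to 72.3, where repeat sequencing of a single library would give about 1. Of the 73 cell type markers listed, 6 were found by name and none of these marks cumulus or granulosa cells, so the labelled cell types could not be checked against their defining markers. Contralateral cumulus library 4 stood apart by its oocyte transcripts, with BCL2L10 at 111 CPM and H1FOO at 92.2 CPM, where the next cumulus library held 9.63 and 8.95 CPM. Contralateral granulosa library 3 stood apart by cilium genes, with CFAP44 at 32.0 CPM and WDR63 at 19.5 CPM against at most 1.89 and 1.17 CPM in the other granulosa libraries. It also held the most BCL2L10 and H1FOO of the granulosa libraries, at 5.53 and 5.23 CPM against at most 1.11 and 0.262 CPM in the others. PF4, the 1 gene found by name of 7 on the leukocyte list, lay between 0.448 and 3.90 CPM in granulosa libraries. It was at 0 in 6 of 8 cumulus libraries, and alone it does not identify a cell type. The surface epithelium marker MUC16 was at 0 in 3 granulosa libraries and reached 44.2 CPM in another.

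The basement membrane gene COL4A4 averaged 419 ± 50.5 CPM over the 8 cumulus libraries and 176 ± 42.4 CPM over the 8 granulosa libraries (± SD). Its levels were 450.1, 439.9, 344 and 372 CPM in ipsilateral cumulus libraries 1 to 4 and 479, 431, 466 and 366 CPM in the contralateral ones. In granulosa libraries they were 159, 204.5, 142 and 257 CPM on the ipsilateral side and 157, 152, 132 and 208 CPM on the contralateral side. All cumulus libraries stood above all granulosa libraries, the lowest of them 1.34-fold above the highest granulosa library. This was the narrowest margin among the 4 genes that were higher in cumulus cells, with a log2 fold change of 1.25 ± 0.12 (SE) for cumulus over granulosa. In bulk samples, fewer cells that make a transcript and less transcript per cell cannot be told apart.

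COL21A1, the collagen that associates with fibrils, averaged 241 ± 47.5 CPM in cumulus libraries and 32.7 ± 23.6 CPM in granulosa libraries (SD, n = 8 each). Cumulus libraries held 174, 175, 251 and 275 CPM on the ipsilateral side and 290.1, 237, 297 and 233 CPM on the contralateral side. Granulosa libraries held 5.83, 82.2, 9.47 and 39.0 CPM on the ipsilateral side and 21.4, 34.6, 36.1 and 33.3 CPM on the contralateral side. The cumulus libraries were close together, whereas the highest granulosa library stood 14.1-fold above the lowest, and both of these extremes were ipsilateral. The log2 fold change of cumulus over granulosa was 2.87 ± 0.43 (SE), and 3.33 without ipsilateral granulosa library 2.

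For the membrane collagen gene COL25A1, cumulus libraries averaged 24.1 ± 3.71 CPM and granulosa libraries 2.61 ± 2.06 CPM (SD, n = 8 each). Ipsilateral cumulus libraries held 29.3, 22.5, 24.2 and 27.9 CPM and contralateral ones 18.3, 25.5, 25.001 and 20.1 CPM. Ipsilateral granulosa libraries held 1.49, 7.14, 1.92 and 3.37 CPM and contralateral ones 1.79, 3.28, 1.28 and 0.609 CPM. The lowest cumulus library stood 2.57-fold above the highest granulosa library, which was again ipsilateral library 2. The log2 fold change of 3.28 ± 0.33 (SE) was the largest in favour of cumulus cells among the 5 genes.

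COLQ had a level of 10.8 ± 1.40 CPM in cumulus libraries and 1.84 ± 1.09 CPM in granulosa libraries (SD, n = 8 each). Its cumulus values were 8.95, 11.5, 12.5 and 11.4 CPM on the ipsilateral side and 11.7, 8.51, 10.8 and 11.5 CPM on the contralateral side. Granulosa values were 1.04, 2.29, 0.832 and 1.03 CPM on the ipsilateral side and 1.69, 1.004, 3.26 and 3.59 CPM on the contralateral side, from 13 to 66 counts per library. No granulosa library reached the cumulus range, and contralateral granulosa libraries 3 and 4 came nearest. The log2 fold change of cumulus over granulosa was 2.62 ± 0.27 (SE).

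The fibril-forming collagen gene COL24A1 had the opposite order, with 1.44 ± 1.65 CPM in cumulus libraries and 13.3 ± 5.49 CPM in granulosa libraries (SD, n = 8 each). Ipsilateral cumulus libraries held 0.0845, 0.458, 0.470 and 1.70 CPM, from 1, 5, 7 and 28 counts. Contralateral cumulus libraries held 1.22, 0.681, 1.62 and 5.25 CPM, from 23, 14, 25 and 93 counts. Granulosa libraries held 15.2, 4.19, 11.8 and 20.4 CPM on the ipsilateral side and 20.9, 10.997, 10.4 and 12.7 CPM on the contralateral side. It was the only gene of the 5 whose cell types overlapped: contralateral cumulus library 4, at 5.25 CPM, lay above ipsilateral granulosa library 2, at 4.19 CPM. The log2 fold change of cumulus over granulosa was -3.41 ± 0.50 (SE).

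**Figure D1:**
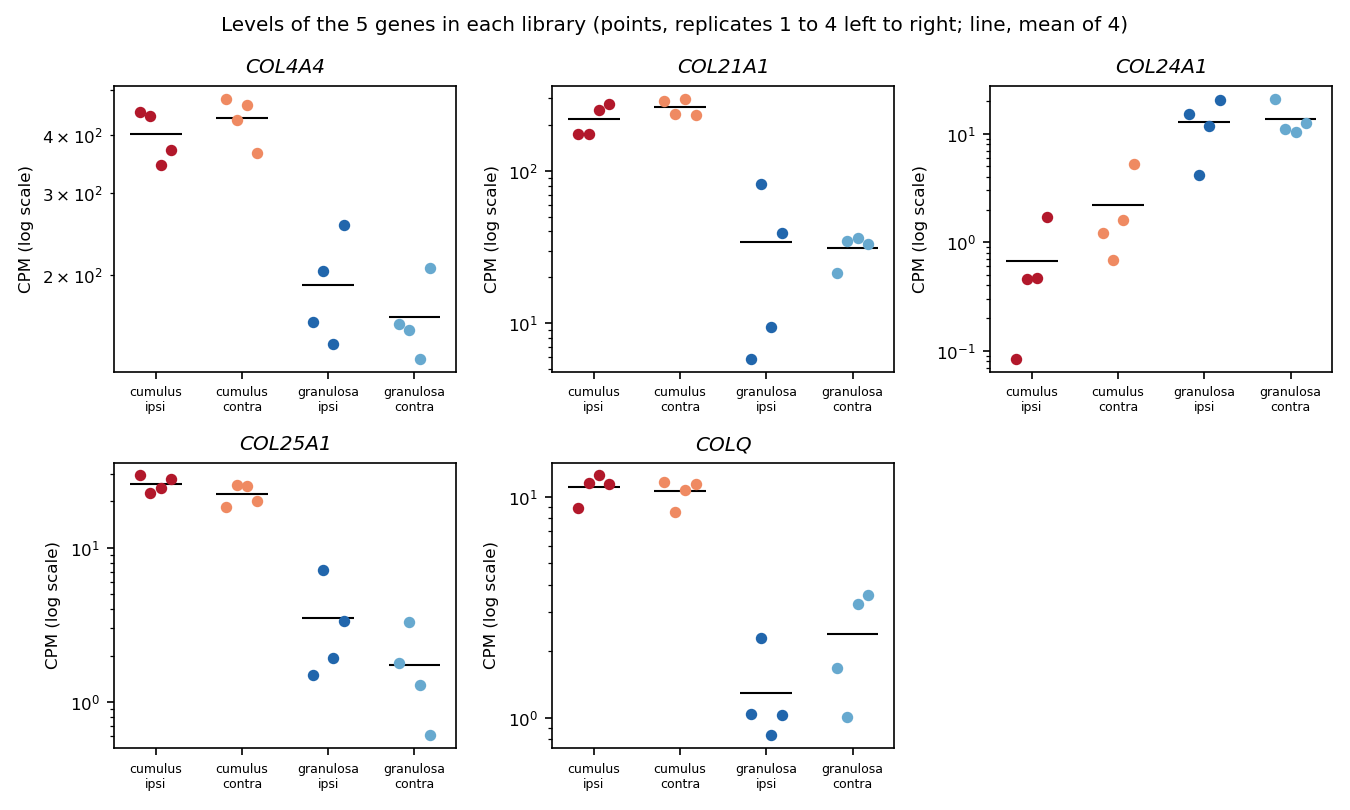
Levels of COL4A4, COL21A1, COL24A1, COL25A1 and COLQ in CPM on a log scale, 1 point per library and a line at the mean of the 4 libraries of a group. The cumulus points of 4 genes all lie above their granulosa points, and the COL24A1 points run the other way with 1 cumulus library above 1 granulosa library.

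Complete separation of the cell types is common in these data, so nothing is read from it. Of all 18038 genes tested, 13.5% had every cumulus library above every granulosa library and 14.5% had the reverse. The order of the cell types was the same within each side. For COL4A4 the log2 fold change of cumulus over granulosa was 1.08 on the ipsilateral side and 1.43 on the contralateral side, and for COL21A1 it was 2.68 and 3.07. COL25A1 had 2.90 and 3.66, COLQ 3.09 and 2.14, and COL24A1 -4.17 and -2.64, ipsilateral side first. Without both libraries that stood apart, each of the 5 genes kept its direction.

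Libraries of a cell type were less alike where the gene was low. The coefficient of variation between libraries was 12.1% in cumulus and 24.1% in granulosa cells for COL4A4, and 19.7% and 72.1% for COL21A1. For COL25A1 it was 15.4% in cumulus and 78.9% in granulosa cells, and for COLQ 12.9% and 59.2%. COL24A1 again ran the other way, with 115% in cumulus and 41.3% in granulosa cells. Counting alone would give 15.6% for COL25A1 and 18.6% for COLQ in granulosa cells, and 21.4% for COL24A1 in cumulus cells, so these spreads were wider than counting error. A larger spread in granulosa cells was also found in 65.5% of 18001 genes, and in 87.5% of the 3219 genes that were more than 2-fold higher in cumulus cells. It therefore does not set COL4A4, COL21A1, COL25A1 and COLQ apart. Of the 2845 genes more than 2-fold higher in granulosa cells, 65.3% had the larger spread in cumulus cells, as COL24A1 did.

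**Figure D2:**
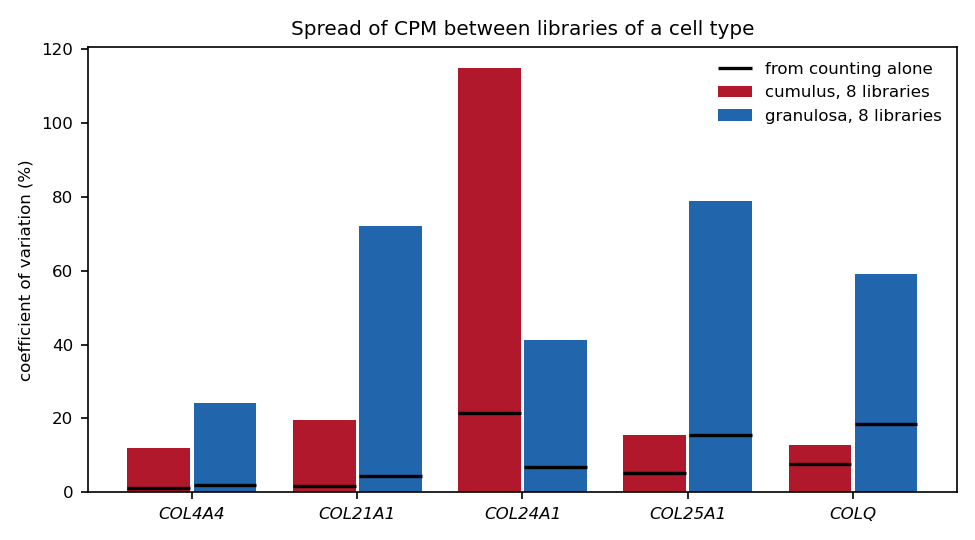
Coefficient of variation of CPM, in percent, between the 8 libraries of each cell type for the 5 genes, with a black line at the value that counting alone would give. Granulosa bars are taller for COL4A4, COL21A1, COL25A1 and COLQ, and the cumulus bar is taller for COL24A1.

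Ipsilateral granulosa library 2 was the granulosa library nearest to the cumulus range for 3 of the genes. It held the highest COL21A1 and COL25A1 and the lowest COL24A1 of the 8 granulosa libraries. Its COL4A4 and COLQ, at 204.5 and 2.29 CPM, were each at rank 3 from the top. HYDIN and C11H2orf40, which are high in cumulus cells, stood in that library at 3.53 and 99.8 CPM. Their granulosa maxima of 8.72 and 197 CPM were both in ipsilateral granulosa library 4. Library 4 also held the highest COL4A4 of the granulosa libraries, at 257 CPM. It was at rank 2 from the top for COL21A1, COL25A1 and COL24A1, and at rank 6 for COLQ. In ipsilateral granulosa library 2 the granulosa-high genes TIMP1 and A2M were at 1598 and 521 CPM. The granulosa ranges were 1406 to 2760 CPM and 271 to 763 CPM, with both lower ends in ipsilateral granulosa library 4. Whether cumulus material in either pool has a part in its collagen values was not tested.

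Among cumulus libraries COL24A1 was highest in contralateral library 4, which on the log2 scale lay 1.596 above the mean of its group of 4, and ipsilateral library 4 lay as far above its own group (1.603). Contralateral cumulus library 4 had the oocyte transcripts named above, and the highest MXRA5, a matrix gene, of the cumulus libraries at 3.05 CPM. It was also the highest cumulus library for COL16A1 (14.2 CPM), LAMA2 (5.76 CPM), LAMA5 (4.46 CPM), CILP (6.05 CPM) and OSCAR (3.16 CPM), and for COL19A1, COL22A1 and COL28A1. It was not the highest for COL4A4, COL21A1, COL25A1, COLQ, COL7A1, COL9A1, COL9A2, COL9A3, LOC530102, GP6 or CHRM3. Its TIMP1 was 41.1 CPM and its A2M 8.98 CPM, inside the cumulus ranges of 14.9 to 83.1 CPM and 1.16 to 19.2 CPM. The part of oocyte material in the COL24A1 value was not tested.

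**Figure D3:**
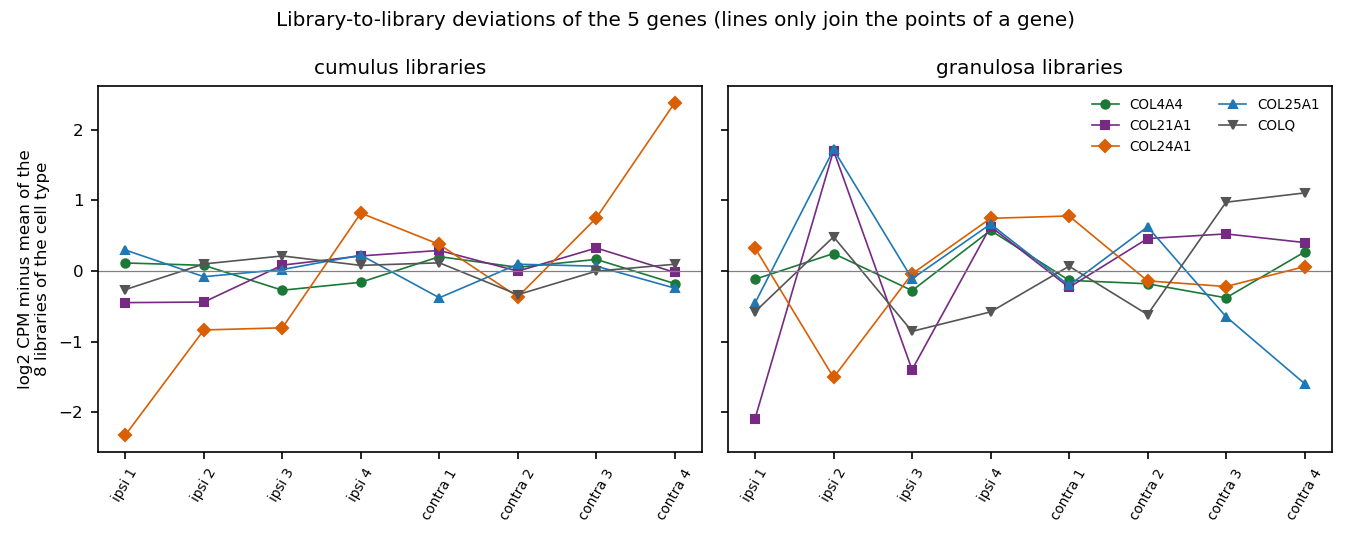
Deviation of each gene's log2 CPM (prior count 2) from its mean over the 8 libraries of the cell type, by library, cumulus libraries left and granulosa libraries right. In granulosa cells COL21A1 and COL25A1 peak and COL24A1 dips in ipsilateral library 2, and in cumulus cells COL24A1 alone has wide deviations.

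Whether the 5 genes varied together across the libraries of a cell type was examined by correlation. All 10 pairs were correlated in each cell type over 8 libraries, 20 relations in all. The 8 libraries come from both sides, so differences between the sides enter these correlations. Pearson's r lay between -0.53 and 0.61 in cumulus cells and between -0.50 and 0.53 in granulosa cells. The strongest by Pearson's r was COL21A1 with COL24A1 in cumulus cells, with r = 0.61 (exact permutation p = 0.106) and Spearman's rho = 0.55 (exact permutation p = 0.171). Without the 2 libraries farthest from the median of COL21A1 its r was -0.06. By Spearman's rho the strongest was COL25A1 with COLQ in cumulus cells, at -0.71 (exact permutation p = 0.0576, adjusted p = 0.781). Its Pearson's r was -0.53, and -0.50 without the 2 libraries farthest from the median of COL25A1. No relation passed, the lowest Benjamini-Hochberg adjusted p over the 20 being 0.647 by exact permutation.

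The question in the series' title, closeness to the corpus luteum, is addressed by the side comparisons. None of the 5 genes was called in cumulus cells, in granulosa cells or in the difference between these 2 effects. With edgeR's quasi-likelihood test at an adjusted p under 0.05, 0% of 16323 genes were called in cumulus cells, 0% of 16411 in granulosa cells and 0% of 18038 for the difference. At an unadjusted p under 0.05 there were 0 of the 5 genes in each comparison. Over all genes there were 1791 of 16323 in cumulus cells, 579 of 16411 in granulosa cells and 1358 of 18038 for the difference. With shares this small, a count of 0 among 5 genes does not set them apart, and nothing is read from it. DESeq2 and limma-voom also called 0 of the 5 in each comparison, while over all genes DESeq2 called 120 in cumulus cells, 1 in granulosa cells and 1 for the difference, and limma-voom called 0 in each.

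In cumulus cells COL4A4 averaged 402 ± 51.4 CPM on the ipsilateral and 436 ± 50.4 CPM on the contralateral side (SD, n = 4 each). COL21A1 averaged 219 ± 52.1 CPM on the ipsilateral and 264 ± 34.0 CPM on the contralateral side, a log2 fold change of -0.28 ± 0.16 (SE) with an adjusted p = 0.520 by edgeR. For COL4A4 the log2 fold change was -0.12 ± 0.11, for COL25A1 0.22 ± 0.15 and for COLQ 0.06 ± 0.18 (SE). The sides overlapped for every one of the 5 genes, and these 4 had the smallest standard errors of the side comparisons. COL24A1 had the largest value, with 0.679 ± 0.706 CPM on the ipsilateral and 2.19 ± 2.08 CPM on the contralateral side, a log2 fold change of -1.63 ± 0.79 (SE, adjusted p = 0.470 by edgeR). It was -0.73 without contralateral cumulus library 4 and -2.66 without ipsilateral cumulus library 4, so single libraries set its size.

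In granulosa cells COL25A1 averaged 3.48 ± 2.57 CPM on the ipsilateral and 1.74 ± 1.13 CPM on the contralateral side (SD, n = 4 each), a log2 fold change of 0.99 ± 0.63 (SE, adjusted p = 0.9996 by edgeR). Without ipsilateral granulosa library 2 it was 0.38. COLQ averaged 1.30 ± 0.669 CPM on the ipsilateral and 2.39 ± 1.24 CPM on the contralateral side, a log2 fold change of -0.89 ± 0.55 (SE). The other log2 fold changes were 0.23 ± 0.19 for COL4A4, 0.11 ± 0.73 for COL21A1 and -0.08 ± 0.42 for COL24A1 (SE). The sides overlapped for each of the 5 genes. The direction for COL21A1 turned without ipsilateral granulosa library 2, to -0.80, and by limma-voom, to -0.57, and that for COL24A1 turned to 0.21 without the same library. Leaving out contralateral granulosa library 1 also turned both, to -0.03 for COL21A1 and 0.19 for COL24A1.

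The difference of the side effects, cumulus minus granulosa, was largest for COL24A1 at -1.53 ± 0.95 (SE, adjusted p = 0.734 by edgeR) and COLQ at 0.95 ± 0.52 (adjusted p = 0.699). COL24A1 had -0.62 without contralateral cumulus library 4 and -2.55 without ipsilateral cumulus library 4. For COL25A1 the difference was -0.76 ± 0.62, for COL21A1 -0.39 ± 0.80 and for COL4A4 -0.35 ± 0.24 (SE). Without ipsilateral granulosa library 2 COL25A1 had -0.15 and COL21A1 turned to 0.52. Over the 5 genes the median log2 fold change by side was -0.12 in cumulus and 0.11 in granulosa cells, beside -0.01 and 0.01 over all genes tested. In granulosa cells the standard errors by side were 0.42 to 0.73 for COL24A1, COLQ, COL25A1 and COL21A1, and in cumulus cells that of COL24A1 was 0.79. With standard errors of this size, moderate differences between sides are not detectable for these genes in those cells.

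**Figure D4:**
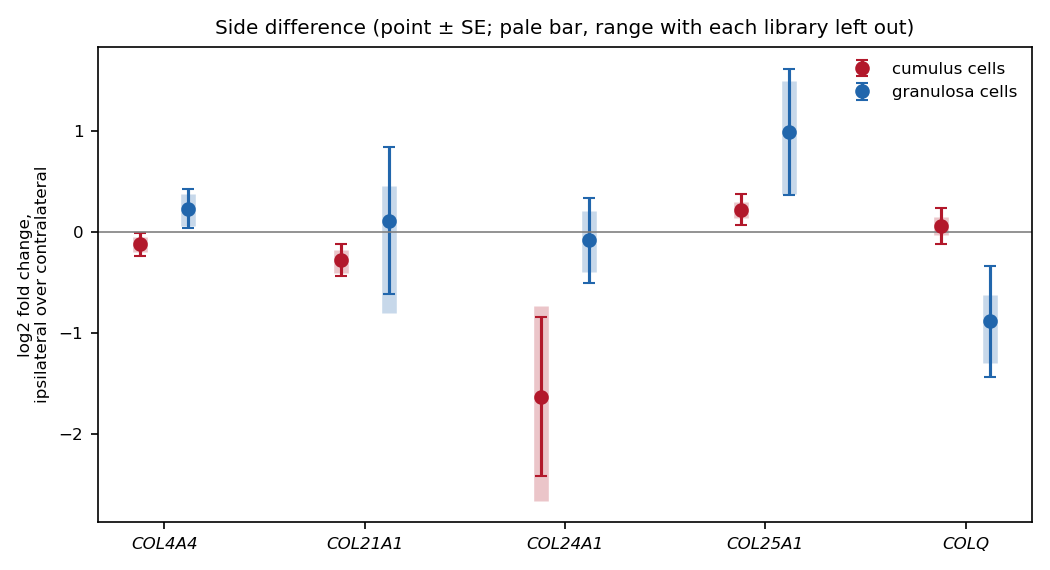
Log2 fold change of ipsilateral over contralateral libraries for each of the 5 genes in cumulus and granulosa cells, with bars of 1 SE and pale bars for the range when each library is left out. All intervals are wide in granulosa cells except that of COL4A4, and COL24A1 in cumulus cells spans -2.66 to -0.73.

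Of the 44 collagen chain genes listed, 13 were found by name, the 4 above and 9 others, and 6 of these 9 had enough counts to be tested. Earlier results of these data were known when the list was written, so adjusted p-values of these chains between cell types are descriptive. The chains COL9A1, COL9A2 and COL9A3 make up type IX collagen, which is best known from cartilage. COL9A1 and COL9A3 passed the filter on low counts only through their cumulus libraries, so they could be called in 1 direction only and are described without a test. Over all genes 29.9% were called higher in cumulus cells and 30.3% were called higher in granulosa cells, and no count of collagen chains is read against these shares.

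COL9A3 averaged 2.24 ± 0.995 CPM over cumulus libraries and 0.216 ± 0.245 CPM over granulosa libraries (SD, n = 8 each). It had 275 counts in cumulus and 31 in granulosa libraries, a depth-scaled ratio of 9.37. All its cumulus libraries, from 1.17 to 4.22 CPM, lay above all granulosa libraries, which reached 0.593 CPM. COL9A1 had 72 counts in cumulus libraries and 2 in granulosa libraries, a depth-scaled ratio of 38.01 that rests on those 2 counts. It was at 0 in 6 of the 8 granulosa libraries, and a count of 0 leaves room for up to 3 counts, or 0.137 to 0.298 CPM depending on the library's depth. Such limits cover counting error only, and amplified reads are not independent molecules. The ratios sum reads over the libraries of a cell type and carry no measure of the spread between pools.

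COL9A2 averaged 75.2 ± 70.7 CPM over cumulus libraries and 18.9 ± 16.5 CPM over granulosa libraries (SD, n = 8 each), its log2 fold change being 1.80 ± 0.65 (SE, adjusted p = 0.0274 by edgeR). Cumulus libraries held 69.7, 25.2, 12.7 and 28.8 CPM on the ipsilateral side and 62.7, 171, 199 and 32.9 CPM on the contralateral side. Granulosa libraries held 8.93, 31.6, 11.5 and 1.39 CPM on the ipsilateral side and 13.4, 36.0, 45.6 and 3.23 CPM on the contralateral side. The cell types overlapped widely. It did not pass when ipsilateral cumulus library 1 (adjusted p = 0.0644), contralateral cumulus library 2 (0.0503) or 3 (0.0550), ipsilateral granulosa library 1 (0.0518) or contralateral granulosa library 1 (0.0521) was left out, by edgeR. By side in cumulus cells COL9A2 had a log2 fold change of -1.78 ± 0.73 (SE, adjusted p = 0.452), which was -2.39 without ipsilateral cumulus library 1.

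The chains COL7A1, COL16A1 and COL19A1 did not pass between cell types, with adjusted p = 0.428, 0.905 and 0.342 by edgeR. COL16A1, a collagen associated with fibrils, averaged 9.66 ± 2.34 CPM over cumulus libraries and 10.1 ± 4.73 CPM over granulosa libraries, and COL7A1, the anchoring fibril collagen, 1.37 ± 0.965 and 1.02 ± 0.370 CPM (SD, n = 8 each). COL22A1, COL28A1 and LOC530102 (COL6A6) had too few counts to be tested, with at most 1.48, 0.642 and 0.944 CPM in any library.

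**Figure D5:**
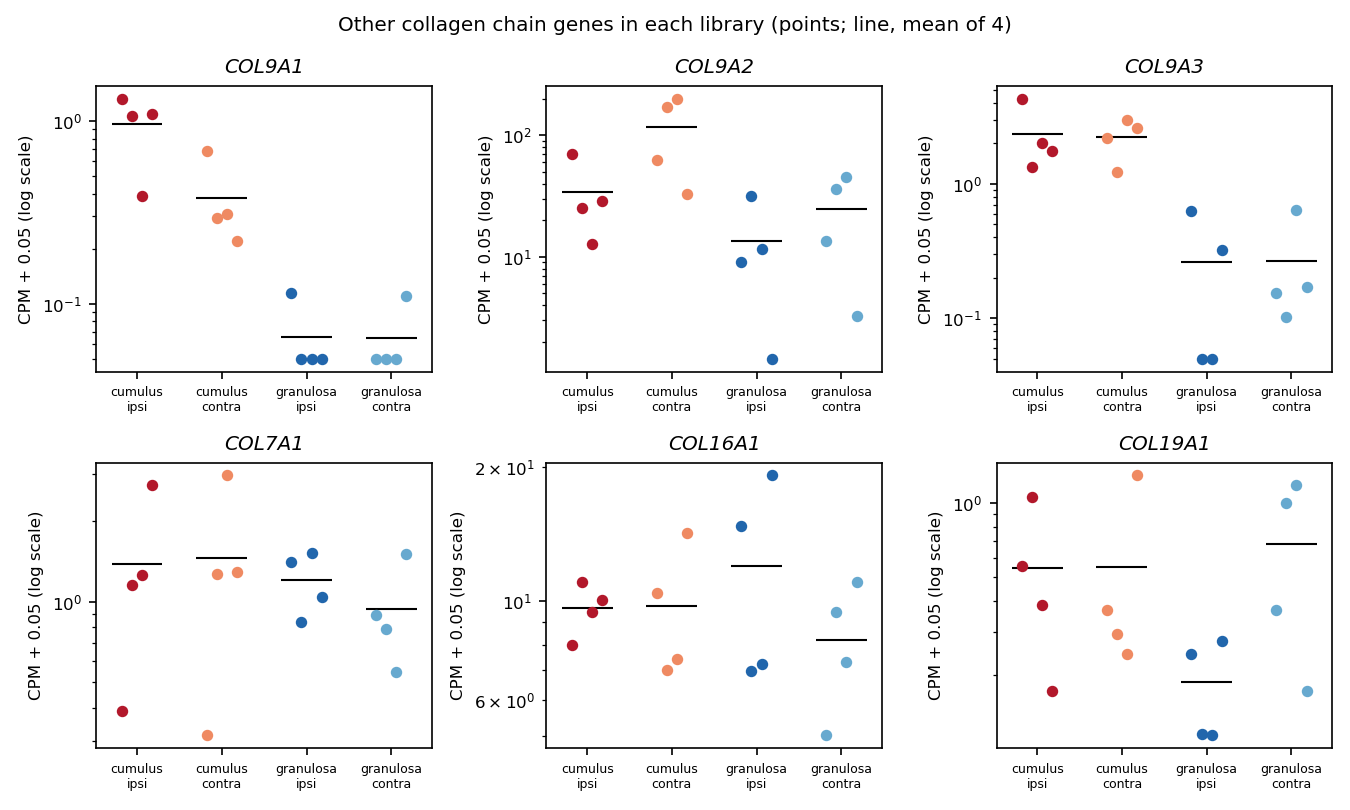
Levels of the 6 other collagen chain genes tested, as CPM plus 0.05 on a log scale, 1 point per library and a line at the mean of each group of 4. COL9A1 and COL9A3 are higher in every cumulus library than in any granulosa library, while the points of the other 4 overlap.

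Few genes around collagen could be followed by name, since 23 of the 232 listed genes were found, collagen chains and COLQ included. The lists were written with earlier results of these data known, so adjusted p-values of listed genes between cell types are descriptive. Genes for collagen synthesis and cross-linking gave 0 of 45 found, and those for binding partners of COL25A1 gave 0 of 10. Of 29 genes for proteins with a collagen-like stretch COLQ was the 1 found, and of 31 acetylcholine genes and partners of COLQ it was the muscarinic receptor gene CHRM3. CHRM3 averaged 41.0 ± 7.06 CPM over cumulus libraries and 7.42 ± 4.92 CPM over granulosa libraries (SD, n = 8 each), a log2 fold change of 2.46 ± 0.34 (SE, adjusted p = 1.77e-05 by edgeR). All cumulus libraries, from 30.7 to 51.4 CPM, lay above all granulosa libraries, from 2.14 to 14.7 CPM. Collagen-binding receptor genes gave 2 of 15, of which GP6 had too few counts and OSCAR did not pass (log2 fold change 1.06 ± 0.80, SE, adjusted p = 0.264 by edgeR). OSCAR passed without contralateral granulosa library 1, at 2.11 (adjusted p = 0.0375). Within a side it had -0.43 on the ipsilateral (adjusted p = 0.767 by edgeR) and 2.54 on the contralateral side (adjusted p = 0.0949).

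Of 20 collagenase and inhibitor genes 2 were found, the protease inhibitor genes TIMP1 and A2M, and both were lower in cumulus cells. The adjusted p-values between cell types are descriptive here too, since these lists were also written with earlier results known. Their log2 fold changes were -5.29 ± 0.31 (adjusted p = 2.83e-09 by edgeR) and -6.15 ± 0.55 (adjusted p = 4.44e-07), the second -7.06 without ipsilateral cumulus library 2. Of 38 other basement membrane and fibril genes 4 were found. The laminin chain gene LAMA5 (log2 fold change -2.35 ± 0.19, SE, adjusted p = 2.37e-08 by edgeR) and MXRA5 (-4.23 ± 0.42, adjusted p = 3.16e-07) were lower in cumulus cells. LAMA2 (0.41 ± 0.19, adjusted p = 0.0702), another laminin chain gene, did not pass over both sides. It had -0.06 on the ipsilateral side (adjusted p = 0.865 by edgeR) and 0.89 on the contralateral side, where it passed (adjusted p = 0.0125). The difference of its side effects did not pass (adjusted p = 0.655 by edgeR). CILP, which also passed the filter only through cumulus libraries, averaged 1.78 ± 1.89 CPM over cumulus libraries and 0.306 ± 0.596 CPM over granulosa libraries (SD, n = 8 each), and the cell types overlapped.

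Among 697 named genes with at least 1 CPM on average, those most like each of the 5 were sought by Pearson's r of log2 CPM over the 16 libraries, which share the cell type difference. COLQ was closest to KLHL31 (r = 0.98), and KIAA1024L (0.94) was also among its nearest. COL25A1 was closest to the noncoding RNA gene DANCR (0.97), TEX22 and AES (0.96 each). COL21A1 was closest to C11H2orf40 and HYDIN (0.96 each) and KLHL31 (0.96). For COL4A4 HEXDC (0.95) and MYL5 (0.94) were among the nearest, and COL24A1 was closest to LOC786474, AARS and ZNF469 (0.90, 0.90 and 0.89).

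By deviations from the 4 group means, which leave the cell type difference out, the closest were other genes for the most part. For COLQ they were KIAA1024L (r = 0.87), KLHL31 (0.83) and MBLAC1 (0.78), and the first 2 of these were also among its nearest by levels. For COL4A4 they were DDX11 (0.82), the muscarinic receptor gene CHRM3 (0.77) and the noncoding RNA gene TUG1 (0.76). COL21A1 was closest to the neuropeptide gene NMB (0.88), IL1RAPL2 (0.83) and FAM217A (0.83), COL25A1 to FAM129A (0.87), FN3K (0.84) and FBXW12 (0.79), and COL24A1 to SENP8 (0.79), MARCH5 (0.70) and LOC101907255 (0.65). All are descriptions over 16 libraries, taken from the top of 697 values each.

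In the RefSeq annotation of the assembly ARS-UCD2.0, COL4A4 lies next to COL4A3, which encodes its partner chain and was not followed here by name. COL4A4 overlaps RHBDD1, COL24A1 overlaps LOC785006 and 2 noncoding genes, and COL25A1 overlaps a pseudogene and a tRNA gene. COL21A1 and COLQ overlap no other gene. The library kits do not mark strand, so reads from such overlaps cannot be assigned with certainty. No other entry of the table lay within 2% or 2 counts of any of the 5 genes in every library.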

How the data were processed

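RNA-seq was done on 16 pools of cumulus or granulosa cells. Per the labels' protocols, cDNA came from a SMART-Seq HT kit and libraries from Nextera XT, read as single ends of 75 bp. Tools listed in the submitters' processing notes are STAR, Trimmomatic, FastQC and DESeq2; versions, build, gene models and counter are not stated in the sources used here. The authors' deposited table holds raw counts per gene entry, and columns were matched to samples by title. LOC entries were named by NCBI gene number from RefSeq (ARS-UCD2.0), which named 1105 of 7848. Of 36824 entries, 2474 have a name, and the 27607 Ensembl entries were tested unnamed.

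Tests used edgeR 4.0.16 (limma 3.58.1, R 4.3.3) with filterByExpr (minimum count 10, total 15), TMM scaling, robust quasi-likelihood F-tests and Benjamini-Hochberg adjustment over all tested genes, calling those with an adjusted p under 0.05. Sides were compared in the 8 libraries of a cell type; cell types and the difference of side effects in all 16, with 4 group means. The SE is the log2 fold change over the root of F. Scripts were tested on simulated data. Alternatives were RLE scaling, no filter, DESeq2 1.42.0, limma-voom, all 16 libraries, a single side, and leaving libraries out. Named genes were the 5 genes, all listed genes found, and the 3 named genes most like each, of which 1 is not reported here. Members and lists were chosen with earlier results of these data known.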

Additional observations from a re-analysis of the deposited data

Results flagged for a closer look

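Among the 5 genes and the other listed genes, 59 groups of 4 libraries with a mean of at least 1 CPM were searched for a library far from the other 3, and 3 were found, where chance alone gives about 1 in 20. COLQ in ipsilateral granulosa library 2 was 2.29 CPM, against 0.832 to 1.04 CPM in the other 3 libraries of the group. A2M in ipsilateral cumulus library 2 was 16.8 CPM, with the next library at 1.69 CPM. CILP in contralateral cumulus library 4 was 6.05 CPM, with the next at 2.07 CPM.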

How the results depend on the processing

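Leaving out each library in turn, and RLE scaling, no filter, DESeq2, limma-voom and all 16 libraries, called none of the 5 genes by side or for the difference of the side effects. The number of all genes called was 0 in each leave-one-out fit. With DESeq2 it was 120 in cumulus cells, 1 in granulosa cells and 1 for the difference; the cause was not tested. By limma-voom COL21A1 reversed to -0.57 by side in granulosa cells and to 0.30 for the difference of the side effects. With each library left out, the side effect in granulosa cells ran from -0.80 to 0.46 for COL21A1 and from -0.40 to 0.21 for COL24A1, the side effect of COLQ in cumulus cells ran from -0.031 to 0.15, and the difference for COL21A1 from -0.74 to 0.52. Between cell types no log2 fold change of the 5 genes changed sign under any alternative run. Of the other collagen chains, 1 was called higher in cumulus cells with ipsilateral libraries alone and 1 with contralateral libraries alone, where fewer samples enter, and 2 to 3 with each library left out. With all libraries it was 3, among them COL9A1 and COL9A3, which like CILP could be called in that direction only. Of 14 other listed genes tested, collagen chains included, 5 were called higher in cumulus cells and 4 higher in granulosa cells. All genes gave 29.9% and 30.3%. The 5 include COL9A1, COL9A3 and CILP, whose direction was fixed by the filter, so the 5 are not read against that share. The 5 became 3 with no filter, 2 with ipsilateral libraries alone, 4 with contralateral libraries alone, 6 with total counts and no scaling factor, and 3 to 5 with each library left out, and the 4 were 4 under each of these. No paired analysis was possible because the labels give no replicate numbers that groups share. Low counts kept COL22A1, COL28A1 and LOC530102 from being tested.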
